A study of Mus musculus with 4 samples.

Results

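Untreated ear skin of mice with an epithelial Traf6 knockout was compared with untreated ear skin of floxed control mice, over all 19938 genes that a probe set names with exactly 1 gene symbol. A gene named by several probe sets is represented by the brightest one, judged by its mean over the 4 arrays. The comparison uses 2 of the 4 arrays of the study, 1 array a side, so no value has a replicate error and no test of the genotype could be made. The study asked what TRAF6 in keratinocytes contributes to the skin's response to imiquimod (IMQ), a TLR7 agonist that provokes psoriasis-like inflammation; the untreated pair is its baseline. RNA was taken from whole ears of female mice aged 8 weeks. The control group, Traf6f/f (f/f), carries floxed Traf6 alleles with no epithelial deletion stated; the other group, Traf6EKO (EKO), is the epithelial knockout, called keratinocyte-specific in the study's title. The 2 remaining arrays hold the same genotypes after 10 mg of IMQ cream per day on the ear for 2 days, and serve here to show whether genes that differed without IMQ also differed with it. The sources used here do not give the promoter that drives Cre, the strain or any pooling of mice, although the study's design text states n = 2. Whole ear holds dermis, cartilage, muscle, fat, nerves and vessels besides epidermis, hair follicles and sebaceous glands.

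TRAF6, an adaptor protein with ubiquitin ligase activity, relays signals from Toll-like receptors and from receptors of the IL-1 and IL-17 families to NF-kB and to the MAP kinases that control AP-1. In keratinocytes these receptors sense microbes, injury and T cell cytokines, and their output includes chemokines, antimicrobial proteins and growth factors. Skin is also a tissue of cyclic structures: hair follicles pass through growth and rest, and only growing follicles make the keratins and keratin-associated proteins of the hair shaft in quantity.

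Differences are given as log2 of the EKO level minus log2 of the f/f level, and levels are log2 values. A floor was set at each array's median over the named genes, a level of 6.98 in untreated f/f and 6.96 in untreated EKO, and a gene reaching it on either array was taken as above the floor. The untreated arrays were close to each other: among 10200 genes above the floor the median difference was 0.02, 86.0% of genes differed by less than 0.25 in either direction, and the 5th and 95th percentiles were -0.28 and 0.30. For scale, 564 genes above the floor were read by 2 or more probe sets, and the differences given by probe sets of 1 gene lay a median of 0.07 and at the 95th percentile 0.35 apart. These probe sets share the same 2 arrays and some gave identical values, so the gap holds no error between animals or arrays. At least 2-fold higher in EKO were 7 genes (0.0686% of those above the floor), and at least 2-fold lower were 33 (0.324%). At 1.5-fold, 66 genes were higher (0.647%) and 108 lower (1.06%). Of the 33 lower genes, 14 were above the floor in f/f skin alone, so that 19 remained when both arrays had to reach it. Of the 7 higher genes, 2 were above the floor in EKO skin alone, as were 17 of the 66. In sign alone, 55.1% of the genes above the floor were higher in EKO and 44.9% lower; over all genes, with no floor, 49% were higher and 50.8% lower. Just inside the 2-fold threshold lay Fosb at 2.05-fold higher and Cyp3a57 at 2.03-fold lower, and just outside lay Casp14 at 1.94-fold higher and Krtap5-5 at 1.99-fold lower. The 2-fold call of Cyp3a57, Serpinb6d, Gprc5d and Sprr4 was lost when array medians were equalised.

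**Figure D1:**
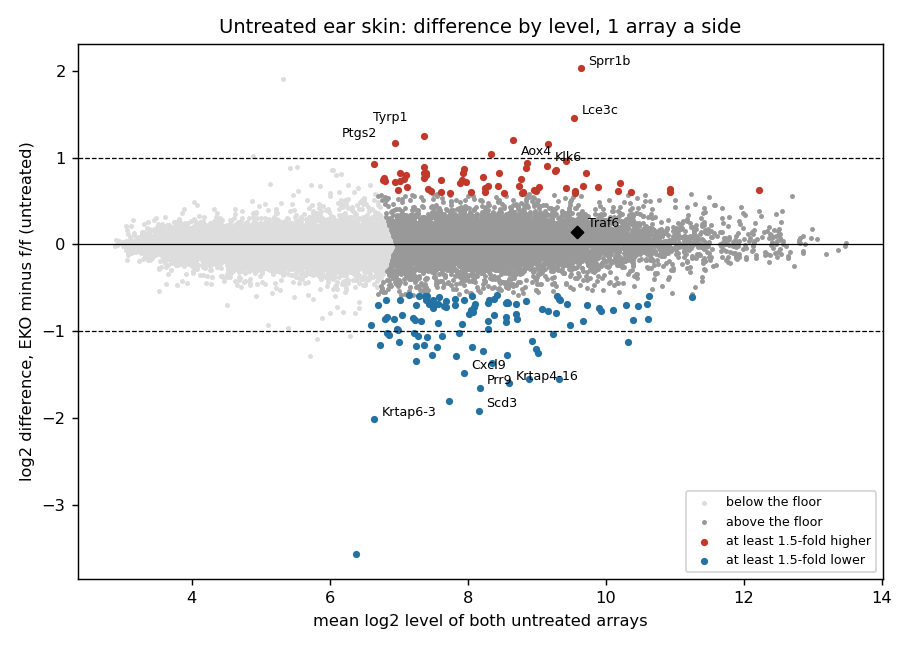
The log2 difference of each gene between the untreated EKO and f/f arrays (vertical axis) is plotted against its mean log2 level on both arrays (horizontal axis), with 1 point per gene, dashed lines at 2-fold, red points for genes 1.5-fold higher or more and blue points for genes 1.5-fold lower or more, if above the floor, and a black diamond for Traf6. Sprr1b is the highest point at 2.03, the lowest is the gene model Gm10061 at -3.58, and Traf6 lies near 0 at 0.14.

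The targeted transcript itself showed no loss on the array labelled EKO. Traf6, with a single probe set, stood at 9.51 in f/f and 9.65 in EKO untreated skin, a difference of 0.14, and 9.30 and 9.35 with IMQ. The sources used here do not say whether the probes lie inside the deleted part of the gene, so the level does not check the label. Xist, the RNA of the inactive X chromosome, stood at 11.95 and 11.82, and the Y-linked genes Eif2s3y (3.39 and 3.38), Kdm5d (4.17 and 4.14) and Uty (3.63 and 3.56) were far below the floor on both arrays, as the female label requires. Epidermal keratins were among the brightest signals on both arrays, with Krt14 at 12.29 in f/f and 12.64 in EKO and Krt5 at 12.41 and 12.67.

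The receptors and adaptors that feed into TRAF6 differed little. Of 34 measured members, 21 were higher and 13 lower in EKO, none by 1.5-fold, with a median of 0.02. They ran from Tlr4, the receptor for bacterial lipopolysaccharide, at 7.27 in f/f and 6.97 in EKO, to Myd88, the adaptor shared by Toll-like and IL-1 receptors, at 9.40 and 9.67. Genes under NF-kB control and its feedback regulators were likewise near their background share, 13 of 24 being higher and 11 lower (median 0.02). Only 15 of the 24 were above the floor, and the cytokine genes Il6, Tnf and Il1b were below it on both arrays. The single called member was Ptgs2, which encodes the inducible cyclooxygenase COX-2. Cxcl1, a neutrophil-attracting chemokine, stood below the floor at 6.73 and 6.62. Tnfaip3, the feedback inhibitor A20, stood at 7.34 and 7.44, and Zc3h12a, an RNase that limits cytokine mRNAs, at 7.86 and 8.17. The NF-kB inhibitor-family gene Nfkbiz was at 8.45 in f/f and 8.64 in EKO.

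Sprr1b, a small proline-rich precursor of the cornified envelope, showed the largest difference among the higher genes. Its level was 8.62 in untreated f/f and 10.65 in untreated EKO skin, 4.09-fold higher, while both treated arrays were brighter still at 12.66 in f/f and 12.31 in EKO. Lce3c, a late cornified envelope gene of the stress-associated LCE3 cluster, followed at 8.81 in f/f and 10.27 in EKO (2.76-fold), against 12.32 and 11.80 with IMQ. The aldehyde oxidase gene Aox4 read 8.06 and 9.26 (2.29-fold), against 10.67 and 10.50 with IMQ. Klk6, a serine protease of the kallikrein family, read 8.58 and 9.73 (2.23-fold), against 12.06 and 11.47 with IMQ. Ptgs2 read 6.36 and 7.54 (2.26-fold), the f/f value lying below the floor, against 9.59 and 8.03 with IMQ. In these 5 genes untreated EKO skin lay between untreated f/f skin and both treated arrays, and with IMQ the order of the genotypes was the opposite, EKO being the lower. The window before the Sprr1b start is shown because this gene had the largest difference among the higher genes. In it, the letters TGANTCA, a loose form of the AP-1 motif with any base in the middle, were searched on both strands. Capitals mark their only match, TGAATCA, which begins at position -111, counted back from the start. Stricter forms of the motif were not counted separately. The window is the 250 bases upstream in RefSeq, GRCm38.p6, chr3:92438780-92439029, minus strand, written 5′ to 3′.
Sprr1b: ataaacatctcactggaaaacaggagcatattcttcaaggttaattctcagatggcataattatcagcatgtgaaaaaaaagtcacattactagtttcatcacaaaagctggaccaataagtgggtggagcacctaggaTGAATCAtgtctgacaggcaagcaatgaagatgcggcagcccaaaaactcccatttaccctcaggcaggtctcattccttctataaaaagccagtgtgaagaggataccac
A match to TGANTCA was present in the promoter windows of 6 of 51 genes at least 1.5-fold higher (11.8%). The other 15 of the 66 had no window in the table. Such matches were also present for 14 of 87 genes at least 1.5-fold lower (16.1%) and for 7.82% of all 27025 genes of the table. A match is a description of these letters and not a binding site.

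Small proline-rich genes did not move as one family. Of 12 measured, 8 were higher and 4 lower in EKO (median 0.07), and only 4 were above the floor. Sprr4 was among the lower genes, at 9.74 in f/f and 8.71 in EKO (2.04-fold lower), and was also the lower in EKO with IMQ, at 9.97 and 9.37. Sprr1a, the neighbour of Sprr4 in the RefSeq gene order, stood at 11.96 and 11.80. All 5 measured LCE3 genes were higher in EKO (median 0.50), but Lce3c alone was above the floor. Lce3e, at 4.36 and 6.27, lay below it on both arrays. The LCE1 genes, expressed in normal cornified layer, were all higher too, 13 of 13, with a median of 0.36 and the largest difference in Lce1f (8.23 and 8.83). With IMQ the 13 LCE1 genes were again all higher in EKO (median 0.27), whereas all 5 LCE3 genes were lower (median -0.98).

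Keratins and secreted factors of wounded or stressed epidermis were mostly higher in EKO. Of 29 measured, 22 were higher and 7 lower (median 0.31), with 6 at least 1.5-fold higher and 1 lower. Il1f6, the older symbol of the gene for the cytokine IL-36 alpha, read 8.70 in f/f and 9.60 in EKO (1.87-fold), and Il1f8, for IL-36 beta, read 8.50 and 9.08. The wound keratins Krt16 and Krt6b read 7.51 and 8.38 (1.83-fold) and 9.30 and 10.13 (1.77-fold). Stfa3, a stefin A inhibitor of cysteine proteases, was above the floor in EKO alone, at 6.60 and 7.43. Not all stress genes went the same way. Krt17 stood at 11.38 and 11.06, the antimicrobial iron-binding protein gene Lcn2 at 8.27 and 8.15, and the serpin gene Serpinb3a at 8.12 and 7.49 (1.55-fold lower). S100a9, a calprotectin subunit abundant in inflamed skin, was below the floor at 6.73 and 6.70. On the treated arrays 28 of the 29 were lower in EKO.

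Terminal differentiation genes were higher in small steps. Of 32 measured, 31 were higher in EKO, with a median of 0.24, and 4 were at least 1.5-fold higher. Casp14, the protease that processes filaggrin in the cornified layer, read 8.94 in f/f and 9.90 in EKO (1.94-fold). The kallikreins Klk8 (8.84 and 9.69) and Klk5 (9.87 and 10.48) and the suprabasal keratin Krt1 (11.90 and 12.53) were the other 3. Beyond this list, 12 kallikrein genes with a symbol of Klk and a number alone were measured, and 9 were higher. Of the 8 above the floor, 5 passed 1.5-fold: Klk6, Klk8, Klk13 (6.70 and 7.50, above the floor in EKO alone), Klk9 (9.86 and 10.56) and Klk5. Other kallikrein symbols, such as those of the Klk1b kind, were not counted. Kallikreins degrade desmosomes during shedding of corneocytes. The single lower member of the list was Elovl4, a fatty acid elongase for barrier ceramides, at 12.39 and 12.28. Basal keratinocyte genes were higher in 13 of 16 (median 0.21), none by 1.5-fold; the hemidesmosome integrin genes Itga6 (10.17 and 10.50) and Itgb4 (9.53 and 9.81) were higher and the bulge keratin Krt15 (11.10 and 10.80) lower. The calls of Krt1, Klk5, Il1f8 and Lce1f were lost under cyclic loess or quantile scaling, their differences being near the threshold.

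Cell cycle genes were higher in EKO in 49 of 49, against a background of 49% over all genes; with the dimmest probe set of each gene 1 of them, Top2a, turned from 0.56 to -0.08. The median difference was 0.34, and the smallest was 0.00 in the replication factor gene Gins2. Above the floor were 28, of which 7 passed 1.5-fold. Ect2, needed for cytokinesis, read 6.92 in f/f and 7.81 in EKO (1.86-fold). The cyclin genes Ccnb2 (8.04 and 8.86) and Ccna2 (7.53 and 8.35) and the mitotic kinase gene Plk1 (6.96 and 7.78) were each 1.77-fold or 1.76-fold higher. Ect2 and Plk1 were above the floor in EKO alone. Mki67, the proliferation antigen Ki-67, read 8.10 and 8.78. Histone genes, picked by symbol and not sorted by whether they are tied to S phase, were higher in 17 of 20 above the floor. With IMQ, 46 of the 49 cell cycle genes were lower in EKO, with a median of -0.27.

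Growth factors of the EGF family were among the higher genes. Epiregulin (Ereg), a ligand of the EGF receptor, read 8.40 in f/f and 9.28 in EKO (1.84-fold) and 9.45 and 9.48 with IMQ. Epigen (Epgn), another such ligand, read 6.67 and 7.30 without IMQ and 10.65 and 8.67 with it. The untreated f/f value of Epgn lay under the floor. Hbegf, heparin-binding EGF, stood at 6.96 and 7.24. Other ligands had the opposite order, Tgfa at 8.53 and 8.05 and Btc at 8.21 and 7.86, and the receptor gene Egfr was at 9.82 and 9.83. In all, 9 of 13 members were higher and 4 lower.

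Immediate-early genes, which cells transcribe within minutes of a stimulus or of handling, were higher in 27 of 28 (median 0.25). Fosb, a subunit of AP-1, read 7.82 in f/f and 8.86 in EKO (2.05-fold) and Fos, another subunit, 6.99 and 7.79 (1.74-fold). The stress-induced factor Atf3 read 8.40 and 9.07, and Egr1 read 8.68 and 9.29, a 1.5-fold call lost under cyclic loess. Ier3, just under the 1.5-fold threshold, read 7.27 and 7.85, and Dusp1, a phosphatase that shuts off MAP kinases, 10.51 and 11.02. With IMQ the list was 10 higher and 18 lower (median -0.07). The sources used here do not give the time from death to extraction, and its part in these differences was not tested.

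The genes of the melanin enzymes Tyrp1 and Dct were higher in EKO by more than 1.5-fold on both pairs of arrays. Tyrp1 read 6.74 in f/f and 7.99 in EKO without IMQ (2.38-fold), and 6.51 and 8.16 with it. Dct, dopachrome tautomerase, read 6.98 and 7.80 without IMQ (1.77-fold), and 6.48 and 7.82 with it. Both genes were called through the EKO array alone. Each of their f/f values lay under the floor of its array, that of Dct without IMQ only just, so the folds are imprecise. The 2 pairs of arrays share no array, and for both genes each EKO array was above each f/f array. Other pigment cell genes above the floor differed less, Pmel at 6.80 and 7.14 and Mlana at 6.92 and 7.15. Mitf, the factor that specifies melanocytes, went the other way at 8.23 and 7.81 without IMQ. In all, 12 of 16 melanocyte genes were higher untreated (median 0.16) and 15 of 16 with IMQ (median 0.33). Fewer or more cells of a type and less or more RNA per cell cannot be told apart in whole ear, here and in all lists below, and the sources used here do not give the coat colour of the mice.

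**Figure D2:**
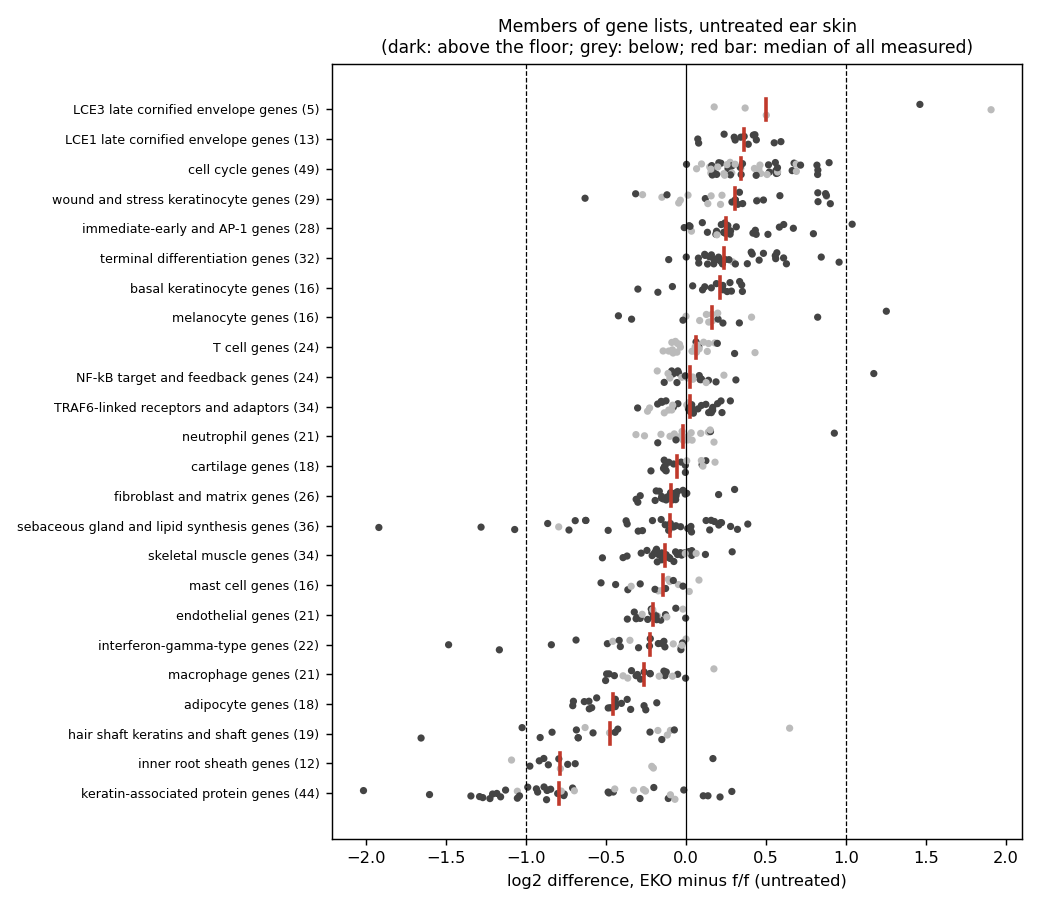
Each point is a measured member of a gene list, placed by its log2 difference between the untreated EKO and f/f arrays (horizontal axis); dark points are above the floor, grey points below, red bars are medians over all measured members, and the number measured stands beside each list name. Epidermal and cell cycle lists lie to the right of 0, TRAF6-linked genes around 0, and adipocyte, hair and keratin-associated protein lists to the left, with medians from -0.46 to -0.79.

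Genes of the hair follicle product made up the largest group of lower genes. Hair shafts are built of keratins cross-linked to keratin-associated proteins (Krtap genes), inside a sheath with keratins of its own. In the 3 lists of these genes 75 were measured and 69 were lower in EKO, and of the 56 above the floor 38 were at least 1.5-fold and 14 at least 2-fold lower. The other 70 of the 108 genes that were 1.5-fold lower belong to none of the 3 lists. Of all 108, 29 reached the floor in f/f skin alone, hair genes among them. Among 44 Krtap genes, 40 were lower (median -0.79), 24 by 1.5-fold and 12 by 2-fold. Krtap6-3, for a high glycine-tyrosine protein, read 7.65 in f/f and 5.64 in EKO (4.05-fold lower), the EKO value lying under the floor, and Krtap4-16, for a cysteine-rich protein, read 9.39 and 7.79 (3.04-fold lower). Of the other 10, Krtap6-1 was 2.54-fold and Krtap3-3 2.31-fold lower, and Krtap1-3, Krtap1-4, Krtap4-1, Krtap4-2, Krtap4-6, Krtap4-7, Krtap6-5 and Krtap21-1 were between 2.06-fold and 2.45-fold lower. Among these 10, Krtap4-6, Krtap4-7, Krtap6-1, Krtap6-5 and Krtap21-1 reached the floor in f/f skin alone. The 33 genes that were 2-fold lower also hold 7 gene models without an established name, and for 6 of them at least 3 of the 10 nearest genes in the RefSeq order are Krtap genes. The largest difference among genes with a probe set of 1 symbol, in the model Gm10061, was 11.9-fold, with 8.16 in f/f and 4.59 in EKO, the EKO value lying far below the floor, where the size of a fold is imprecise. Some Krtap genes are close copies of each other and lie in clusters, so a probe set may read several of them. The counts are therefore not of independent genes.

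The 250 bases upstream of Krtap6-3 and Krtap4-16 (RefSeq, GRCm38.p6) are shown because the letters TATAAA were frequent in the windows of the lower genes. These letters, the TATA motif, were searched on both strands and are in capitals. Krtap6-3 lies at chr16:89083774-89084023, plus strand, and Krtap4-16 at chr11:99851606-99851855, minus strand, both windows written 5′ to 3′.
Krtap6-3: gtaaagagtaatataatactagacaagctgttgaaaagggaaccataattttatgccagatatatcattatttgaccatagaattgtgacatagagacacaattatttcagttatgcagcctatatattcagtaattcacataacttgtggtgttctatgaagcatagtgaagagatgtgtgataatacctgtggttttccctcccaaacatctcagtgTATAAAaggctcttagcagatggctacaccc
Krtap4-16: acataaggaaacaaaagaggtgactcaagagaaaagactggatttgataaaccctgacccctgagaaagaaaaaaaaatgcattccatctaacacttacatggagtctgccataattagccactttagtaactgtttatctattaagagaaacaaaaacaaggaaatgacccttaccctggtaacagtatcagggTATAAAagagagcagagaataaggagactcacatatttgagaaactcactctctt
The match begins at position -31 in Krtap6-3 and at position -55 in Krtap4-16. Of 40 Krtap genes with a window in the table, 31 held the motif (77.5%), as did 46 of 87 genes at least 1.5-fold lower (52.9%), compared with 14.3% of all 27025 genes. Since Krtap genes are part of the lower set, these shares are not independent of each other. A match anywhere in the 250 bases is a description of these letters and not of a working TATA box.

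Shaft and sheath genes went the same way as the Krtap genes. Prr9, a proline-rich protein gene next to loricrin, read 9.0 in f/f and 7.35 in EKO (3.15-fold lower), and Gprc5d, a receptor gene expressed in keratinising hair cells, read 7.73 and 6.70 (2.03-fold lower). The EKO value of Gprc5d lay under the floor. The shaft keratins Krt86 (8.03 and 7.11), Krt33a (8.98 and 8.14), Krt33b (8.89 and 8.21) and Krt34 (8.63 and 7.96) were 1.59-fold to 1.88-fold lower. In the inner root sheath, trichohyalin (Tchh) read 8.78 and 7.80 (1.97-fold lower), and the sheath keratins Krt27 (8.73 and 7.85), Krt71 (9.68 and 8.88) and Krt25 (9.45 and 8.71) were at least 1.67-fold lower. Of 19 shaft genes 18 were lower (median -0.48), and of 12 sheath genes 11 were lower (median -0.79). Regulators of the hair growth stage, by contrast, were 14 higher and 14 lower with a median of -0.01, none called: the follicle pattern factor genes Foxn1 (7.85 and 8.21) and Wnt10a (8.06 and 8.48) had higher values and the stem cell marker Lgr5 (6.79 and 6.06) lay below the floor. The sources used here do not state the hair cycle stage of these ears.

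With IMQ the order of the genotypes in the hair genes was reversed. Of the 75 genes, 70 were higher in EKO on the treated arrays, with medians of 0.88 for Krtap genes, 0.52 for shaft genes and 0.91 for sheath genes. All 24 Krtap genes that were 1.5-fold lower without IMQ were higher in EKO with it, 21 by 1.5-fold. Krtap6-1 went from 7.92 in f/f and 6.58 in EKO to 5.32 and 7.38 with IMQ. Krtap3-3 went from 9.60 and 8.39 to 7.62 and 8.87. Among the called sheath genes, Krt75, a keratin of the companion layer, was the exception, at 8.37 and 7.45 without and 8.25 and 7.95 with IMQ.

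Some genes of the sebaceous gland and of lipid synthesis were lower in EKO, while the list as a whole was divided: of 36 genes, 22 were lower and 14 higher (median -0.10). Sebum consists of wax esters and triglycerides made by desaturases, acyl-CoA reductases and wax synthases of the gland. Scd3, a fatty acid desaturase, read 9.12 in f/f and 7.20 in EKO (3.78-fold lower), and 6.96 and 6.63 with IMQ. Dgat2l6, an acyltransferase of the diacylglycerol and wax synthase family, read 8.13 and 6.85 (2.43-fold lower), and 8.91 and 7.80 with IMQ. Mc5r, the melanocortin receptor of sebaceous glands, read 7.94 and 6.87 (2.10-fold lower), and 7.28 and 6.81 with IMQ. The untreated EKO values of Dgat2l6 and Mc5r lay under the floor. The fatty acyl-CoA reductase gene Far2 read 11.04 and 10.18 (1.82-fold lower), and 11.10 and 10.50 with IMQ. The wax synthase gene Awat1 read 8.70 and 8.07 (1.55-fold lower), and 9.73 and 8.69 with IMQ.

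All 8 members that were at least 1.5-fold lower were also lower in EKO with IMQ, 3 of them by 1.5-fold; the smallest of these 8 treated differences was -0.03, in the elongase gene Elovl5. Fasn, the fatty acid synthase gene (-0.06), and the desaturase gene Scd1 (-0.08) differed little. Genes of sterol synthesis, made in many cell types, had the opposite order: Lss at 8.44 and 8.83, Fdps at 9.31 and 9.63 and Sqle at 8.93 and 9.20. The other called lower members were Mgst1, a microsomal glutathione transferase (10.27 and 9.54), and Fa2h, the fatty acid hydroxylase (9.63 and 9.01).

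A further 6 named genes that were 2-fold lower belong to none of the gene lists. Akr1c18, a hydroxysteroid dehydrogenase that inactivates progesterone, read 9.49 in f/f and 8.38 in EKO (2.17-fold lower), and 9.77 and 8.62 with IMQ. Aadacl4, of the arylacetamide deacetylase family, read 9.04 and 7.67 (2.57-fold lower), and 8.90 and 7.92 with IMQ. Rnase2b, of the ribonuclease A family, read 9.64 and 8.39 (2.38-fold lower), and 10.34 and 8.76 with IMQ. In each of the 3 genes both EKO arrays were below both f/f arrays. Cyp3a57, a cytochrome P450 gene, read 7.34 and 6.32, and 7.17 and 6.27 with IMQ. It had the same order of arrays but lay near the floor. The serpin gene Serpinb6d (8.38 and 7.36) and Lrrc15 (8.16 and 7.10), for a leucine-rich repeat membrane protein, were 2.03-fold and 2.08-fold lower untreated. With IMQ, Serpinb6d was slightly higher in EKO, at 6.50 and 6.66, and Lrrc15 was 1.57-fold higher, at 7.03 and 7.69.

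Among 35 genes for retinoid and xenobiotic metabolism, 18 were higher and 17 lower (median 0.04), so that Aox4 was not part of a common shift. Dhrs9, a retinol dehydrogenase, was the other called higher member at 7.44 and 8.04. The carboxylesterase Ces1d (10.31 and 9.54), Cyp2e1 (10.64 and 9.94) and Cyp1b1 (7.72 and 7.07) were the called lower members.

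Fat genes were lower in EKO in 18 of 18, with a median of -0.46 and 6 at least 1.5-fold lower. The adipokine Adipoq read 10.83 in f/f and 10.12 in EKO (1.63-fold lower), and the gluconeogenic and glyceroneogenic enzyme Pck1 read 10.08 and 9.37 (1.63-fold lower). The fatty acid carriers Fabp4 (11.54 and 10.94) and Cd36 (10.92 and 10.33) differed by -0.60 and -0.59, calls that were lost when array medians were equalised, as was that of Cidea, a lipid droplet protein (7.89 and 7.28). With IMQ 17 of the 18 were higher in EKO (median 0.45), Cidea being the one that was lower on both pairs.

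Other layers of the ear leaned the same way by less. All 21 measured endothelial genes were lower (median -0.21), though Prox1 and Pdpn, both near 0, turned sign with equalised array medians, and Prox1 also under cyclic loess and quantile scaling. The list was led by the receptor Tek (8.07 and 7.70) and the junction protein Pecam1 (8.03 and 7.70). Skeletal muscle genes were lower in 28 of 34 (median -0.13), fibroblast and matrix genes in 23 of 26 (median -0.09) and cartilage genes in 12 of 18 (median -0.05), and no member of these 4 lists was 1.5-fold apart. Epidermal lists leaned up on the same arrays, as given above. How far the mix of layers differed between the 2 ears, and its part in any list, was not tested.

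Interferon-gamma-responsive genes were lower in EKO in 21 of 22 and higher in none, with a median of -0.23. Ifng, the cytokine gene itself, was at 5.58 on both arrays, below the floor. Cxcl9, a chemokine that draws T cells through CXCR3, read 8.69 in f/f and 7.21 in EKO (2.80-fold lower), and 8.59 and 7.79 with IMQ. Cxcl10, a second ligand of that receptor, read 7.83 and 6.66 (2.25-fold lower), and 7.72 and 8.36 with IMQ. Both EKO values without IMQ were the lowest of the 4 arrays for their gene, and that of Cxcl10 lay under the floor. The interferon-induced GTPases Iigp1 (7.26 and 6.41) and Gbp4 (7.84 and 7.15) were 1.79-fold and 1.61-fold lower, the EKO value of Iigp1 lying under the floor. The third CXCR3 ligand gene, Cxcl11, was below the floor at 5.38 and 5.31. Genes induced by type I interferon were closer to balance, 11 higher and 20 lower, none by 1.5-fold (median -0.03, which turned to 0.00 with equalised array medians). With IMQ the interferon-gamma list was 11 higher and 11 lower.

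The 250 bases upstream of both chemokine genes (RefSeq, GRCm38.p6, minus strand, 5′ to 3′) are shown because they had the largest differences of the list and opposite orders with IMQ. Capitals mark matches to the letters of the interferon-stimulated response element ISRE (TTTCNNTTTC, searched on both strands). Cxcl9 lies at chr5:92328080-92328329 and Cxcl10 at chr5:92348890-92349139.
Cxcl9: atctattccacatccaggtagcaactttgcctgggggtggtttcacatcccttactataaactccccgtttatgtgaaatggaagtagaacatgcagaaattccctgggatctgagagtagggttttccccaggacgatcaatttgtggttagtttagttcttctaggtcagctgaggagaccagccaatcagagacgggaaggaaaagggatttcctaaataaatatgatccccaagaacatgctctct
Cxcl10: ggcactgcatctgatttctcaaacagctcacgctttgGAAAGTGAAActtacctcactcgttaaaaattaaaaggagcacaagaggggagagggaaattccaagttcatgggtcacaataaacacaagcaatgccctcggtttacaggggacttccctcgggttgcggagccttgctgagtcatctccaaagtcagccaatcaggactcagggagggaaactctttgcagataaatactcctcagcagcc
Cxcl10 holds 1 match, on the opposite strand, beginning at position -213, and Cxcl9 holds none in this window. Of the 22 interferon-gamma-type genes, 13 had a window, and 5 of these held the motif (38.5%), compared with 3.46% of all 27025 genes. The list was made of interferon-responsive genes, so its share is no result of these arrays. Among genes at least 1.5-fold lower in untreated EKO skin, 4 of 87 held the motif (4.60%), near the share of all genes. A match is a description of these letters and not a binding site.

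Genes of resident immune cells leaned lower in EKO. Of 21 macrophage genes 20 were lower (median -0.26), none by 1.5-fold: the scavenger receptor Cd163 read 7.89 and 7.40, Mgl2, a lectin of dermal macrophages, 8.90 and 8.42, and Retnla, a product of alternatively activated macrophages, 9.98 and 9.47. Of 16 mast cell genes 14 were lower (median -0.14), including the protease genes Cpa3 (10.38 and 9.94) and Mcpt4 (9.79 and 9.42). MHC class II and dendritic genes were lower in 15 of 19 (median -0.09). T cell genes were 14 higher and 10 lower (median 0.06), with 4 above the floor, and B cell genes had 1 member above it.

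Neutrophil genes were split evenly. Of 21, 10 were higher and 11 lower (median -0.02), and 4 were above the floor; Ly6g, the defining surface marker of mouse neutrophils, was at 4.86 and 4.76. Cxcr2, the receptor for neutrophil-attracting chemokines, was the one called member, at 6.18 in f/f and 7.11 in EKO (1.90-fold), just above the floor in EKO alone. Its neighbour in function Cxcr1 stood at 5.90 and 6.08 and the G-CSF receptor gene Csf3r at 5.70 and 5.84, both below the floor. The list of monocyte, neutrophil and T cell chemokines, which does not hold Cxcl9 or Cxcl10, had 29 measured genes. Of these, 11 were higher and 18 lower, none by 1.5-fold. In the prostaglandin and leukotriene pathway 15 were higher and 14 lower, and Ptgs2 was the only called member; Ptges, the prostaglandin E synthase that acts after it, stood at 9.80 and 10.15.

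**Figure D3:**
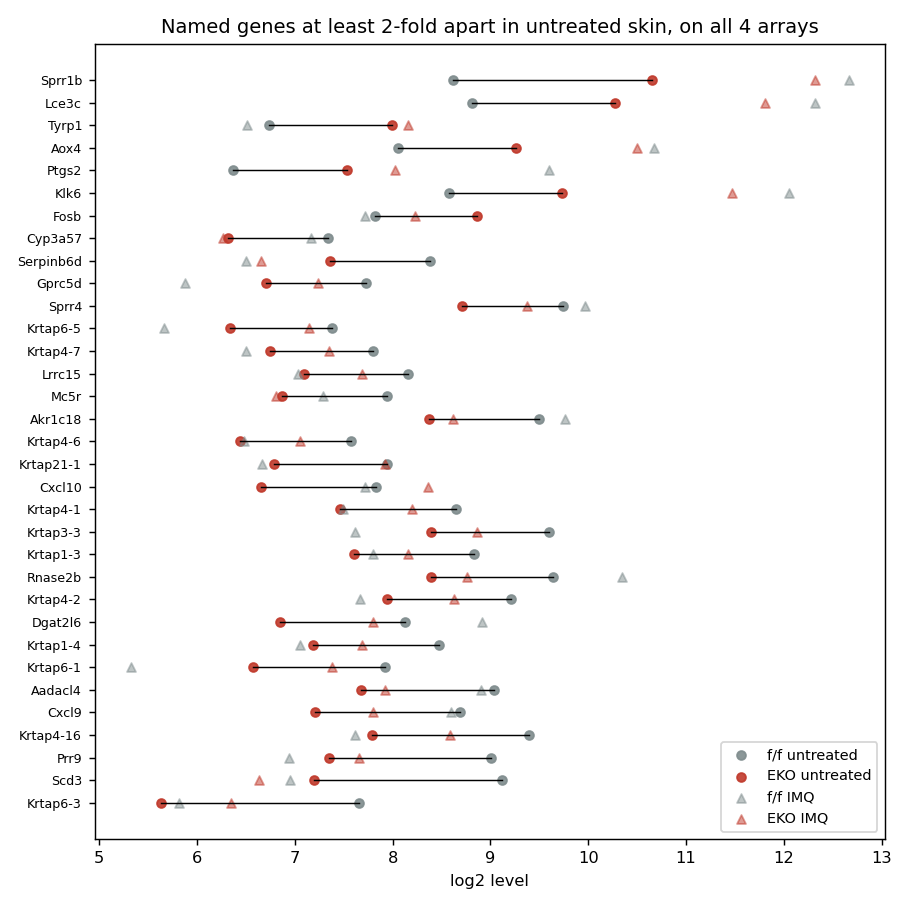
Log2 levels (horizontal axis) of the 33 genes with established names that were at least 2-fold apart between untreated EKO and f/f skin, on all 4 arrays; circles joined by a line are untreated arrays, triangles are arrays with IMQ, grey is f/f and red is EKO, 1 array each. For Sprr1b, Lce3c, Aox4, Ptgs2 and Klk6 both triangles lie to the right of both circles. For Akr1c18, Aadacl4, Rnase2b, Cyp3a57, Dgat2l6, Mc5r, Cxcl9 and Sprr4 both red marks lie to the left of both grey marks.

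The treated arrays, which were not used to choose the genes, show which untreated differences were found again. Of the 66 genes that were higher by 1.5-fold in untreated EKO skin, 18 were higher and 48 lower in EKO with IMQ; over all genes above the untreated floor, 51.4% were higher and 48.6% lower. Of the 108 lower genes, 35 were again lower and 73 higher. Counting only those past 1.5-fold on the treated arrays too, 6 higher genes kept their direction and 11 had the opposite one, and 17 lower genes kept it and 44 had the opposite one. For comparison, among 10282 genes above the floor with IMQ, the 1.5-fold threshold was passed upward in EKO by 209 (2.03%) and downward by 268 (2.61%), and the 2-fold threshold upward by 43 (0.418%) and downward by 90 (0.875%). The 6 that were higher on both pairs are Tyrp1, Dct, the secretoglobin gene Scgb1b27, the steroid 17-hydroxylase gene Cyp17a1, Ndufa4l2 and Npbwr1; they are named because their values agreed in sign on both pairs. Scgb1b27 read 8.38 in f/f and 9.32 in EKO untreated and 7.18 and 9.38 with IMQ, although a second, dimmer probe set for it was below the floor. Cyp17a1 read 8.40 and 9.15 untreated and 8.16 and 9.17 with IMQ.

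The 17 that were lower on both pairs were chosen in the same way, by their values. They include the sebaceous genes Awat1, Dgat2l6 and Far2, the esterase-family genes Aadacl4, AAdacl4fm3 and Ces4a, the steroid enzymes Akr1c18 and Hsd3b6, and Rnase2b, Cyp3a57, Cidea, Steap4, Sprr4, Serpinb3a, Sema3e, Ifitm6 and Cxcl9. Hsd3b6, a hydroxysteroid dehydrogenase, read 7.45 and 6.86 untreated, the EKO value lying under the floor, and 8.29 and 7.35 with IMQ. Its untreated call was lost with equalised medians, cyclic loess and quantile scaling. Ces4a, a carboxylesterase, read 8.01 and 7.35 untreated and 8.71 and 7.71 with IMQ. No Krtap, hair shaft, sheath, cell cycle or LCE gene is among the 23 genes of both groups.

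**Figure D4:**
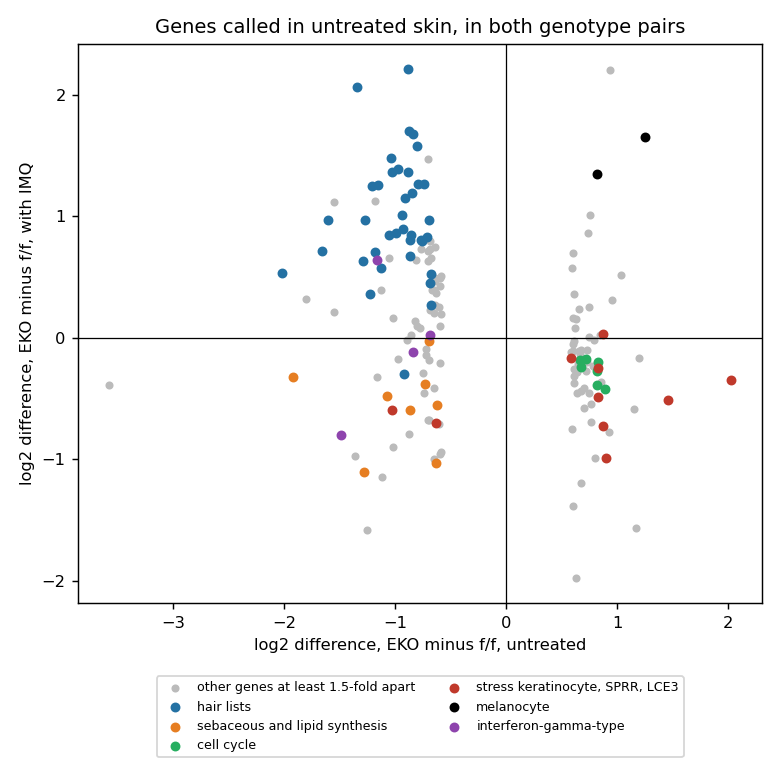
For the 174 genes at least 1.5-fold apart in untreated skin, the log2 difference EKO minus f/f with IMQ (vertical axis) is plotted against the same difference without IMQ (horizontal axis), 1 point per gene, coloured by list. Hair genes (blue) lie at the upper left, lower without and mostly higher with IMQ; sebaceous genes (orange) lie at the lower left and melanocyte genes (black) at the upper right, keeping their direction; cell cycle genes (green) lie at the lower right.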

How the data were processed

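RNA of whole ear was read on Affymetrix Mouse Gene 1.0 ST arrays, 1 array per group. The authors deposited log2 levels per probe set, made with RMA (background correction, quantile normalization and summarisation of probes) according to the submitters' processing notes. The RMA version and annotation were not given in the sources used here. RMA equalises array distributions, so a shift of most genes one way would be hidden, and it compresses low signals. Of 35556 probe sets, 21789 had 1 symbol, 1621 had several and 12146 were not listed; the last 2 kinds entered no comparison.

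Log2 differences were computed with Python 3.11.15, numpy 2.4.6 and pandas 2.3.3, with the floor and the 2-fold and 1.5-fold calls given above. The arithmetic was tested on simulated data. With 1 array a side no test was made, and the number of arrays limits the precision. Named are Traf6, every 2-fold gene with an established name, and up to 6 members per list with the largest differences above the floor or needed in a sentence. The 37 gene lists and the comparison were chosen with earlier results of these data known. Alternatives were other scalings (limma 3.58.1 in R 4.3.3), floors and probe set rules. Promoter windows came from RefSeq, GRCm38.p6, and were matched by symbol.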

Additional observations from a re-analysis of the deposited data

Results flagged for a closer look

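Some differences between the genotypes had opposite signs without and with IMQ. The difference between the pairs was not tested, since each value comes from 1 array a side. Of the genes higher by 1.5-fold in untreated EKO skin, 11 were at least 1.5-fold lower with IMQ, and of those at least 1.5-fold lower, 44 were at least 1.5-fold higher.

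A set of 7 gene lists had medians on opposite sides of 0, by more than 0.25 on each side. Medians were 0.50 untreated and -0.98 with IMQ for LCE3 genes, 0.31 and -0.92 for wound and stress keratinocyte genes, and 0.34 and -0.27 for cell cycle genes. In the other direction they were -0.79 and 0.88 for keratin-associated protein genes, -0.48 and 0.52 for hair shaft genes, -0.79 and 0.91 for inner root sheath genes and -0.46 and 0.45 for adipocyte genes.

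Among single genes past 2-fold in both pairs with opposite signs, Ptgs2 differed by -1.57 with IMQ. The others with an established name were higher in EKO with IMQ, Gprc5d by 1.36, Krtap6-5 by 1.48, Krtap21-1 by 1.26, Krtap3-3 by 1.25 and Krtap6-1 by 2.06. The gene models Gm11559 and Gm10228 showed the same pattern, each higher by 1.12 with IMQ.

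Probe sets that name no single gene also differed in untreated skin. Of 761 with several gene symbols above the floor, 11 were at least 2-fold lower in EKO and 0 higher, and 10 of the 11 list a Krtap symbol among their genes; 9 of the 11 were higher in EKO with IMQ. Of 3748 above the floor with no listed symbol, 4 were at least 2-fold lower and 2 at least 2-fold higher.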

How the results depend on the processing

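With 1 array a side, counts and folds describe these arrays and not the genotypes, and levels near the floor approach background. No paired analysis was possible because each group has 1 array. Across other scalings, floors and probe set rules the number of genes at least 2-fold higher ran from 5 to 9, at least 1.5-fold higher from 49 to 86 and at least 1.5-fold lower from 79 to 125. At least 2-fold lower were 19 genes with the floor on both arrays, fewer because 14 genes reached it in f/f alone, and up to 36 with no floor. Of the 167 genes checked (those with an established name past 1.5-fold, and Traf6), 0 changed sign; 791 values kept their side of the fold threshold and 44 fell under it. Of 803 list members, 60 changed sign under some alternative, among them Egfr, Ifng, Eif2s3y and Kdm5d, all near 0, and Top2a. Scaling moved the median of all genes by at most 0.03.

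Binomial intervals treat list members as independent, which they need not be, and measure no error of the genotype. They serve here only to flag a move. The share of members with the main direction moved beyond its binomial interval in a few lists. With members above the floor only it became 100% for hair shaft, interferon-gamma-type, macrophage, T cell (of 4), mast cell and B cell (of 1) genes and 85.7% for cartilage genes. It became 100% for immediate-early genes with equalised array medians and with quantile scaling, and 50% for the genes that check the female label with equalised medians. List medians kept their sign for the hair, adipocyte, cell cycle, stress, differentiation, macrophage, endothelial and interferon-gamma lists under the alternatives run; for the neutrophil, nerve, hair growth-stage and type I interferon lists the medians lay on both sides of 0.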
